A study of Mus musculus with 23 samples.

Results

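Small intestine RNA was measured in 23 libraries, each taken as 1 mouse. From the 19215 entries of the table, 9 genes of retinoid uptake and metabolism were taken: Rbp2, Dhrs3, Bco1, Isx, Lrat, Rdh7, Aldh1a1, Scarb1 and Rarb. The genes were listed by symbol, found through their NCBI Gene numbers and chosen by measured values in part, namely the fall of Dhrs3 and the rise of Rbp2 after A10-FMT, so the comparison of A10-FMT with Sa is described below without a test. The mice were of the ICR strain and every group, the Sa group included, had received busulfan at 40 mg/kg, a chemotherapeutic that injures the intestinal mucosa. Sa mice then received saline, and the other mice received fecal microbiota transplantation (FMT), that is, luminal contents of donor mice. Donors had been given the vehicle for the Con-FMT group, alginate oligosaccharides (AOS) at a dose of 10 mg/kg for the A10-FMT group, and 100 mg/kg of AOS for the A100-FMT group. The study's methods describe male mice that were 3 weeks old at the busulfan injection and 5 weeks old at collection, FMT once a day for 1 week, and donor contents that were pooled before use. The sample codes split the libraries into set 1 and set 2, and neither the labels nor the methods say what the sets are or tie the ages to one of them. Sa of set 1 had 2 mice and each of the other 7 groups had 3. No group without busulfan was among these libraries, and since donors were pooled, the mice of a group may share 1 inoculum. Nothing in the labels says more about how the mice of a group were housed, so p-values measure the spread between these mice.

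Dietary vitamin A reaches the enterocyte as retinol, set free from retinyl esters in the lumen, or as carotenoids taken up by the scavenger receptor class B member encoded by Scarb1. Bco1 cleaves beta-carotene to retinal, and Isx, an intestine-specific homeobox repressor, lowers Scarb1 and Bco1 when retinoic acid is plentiful. Rbp2 is the cellular retinol-binding protein of the absorptive enterocyte and carries retinol and retinal. Lrat esterifies the bound retinol for export in chylomicrons. Dhrs3 reduces retinal to retinol, Rdh7 belongs to a family of dehydrogenases that oxidise retinol, and Aldh1a1 oxidises retinal to retinoic acid, which acts through nuclear receptors such as the one encoded by Rarb.

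The values are FPKM, in which the fragments of a gene are divided by the length of its transcript and by the size of the library, so levels can be set side by side between genes. Changes below are differences of log2(FPKM + 1) from limma, fitted on the 11337 entries with a mean of at least 1 FPKM, with p-values adjusted over all of them. The added 1 shrinks the changes of weakly expressed genes. This filter was passed by 8 of the 9 members; Bco1 did so narrowly with a mean of 1.11 FPKM, and Rarb with a mean of 0.124 FPKM did not and has no test.

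The promoters of Bco1, Rarb and Rbp2 are shown because nuclear receptors act at promoters and these held such a receptor motif within the 100 bases before the start of the gene. RefSeq (GRCm38.p6) gave 12 promoters for 8 of the 9 members, Scarb1 being the one without an entry, and each covered 250 bases before to 50 after a gene start. The 100 bases before the start are printed on the strand of the gene, from chr8:117095765-117095864 (plus strand), chr14:16575477-16575576 (minus strand) and chr9:98490437-98490536 (plus strand). The Bco1 start used for its promoter lies a few bases inside the annotated gene span.
Bco1: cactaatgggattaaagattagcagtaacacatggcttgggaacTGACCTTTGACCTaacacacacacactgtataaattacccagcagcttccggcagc
Rarb: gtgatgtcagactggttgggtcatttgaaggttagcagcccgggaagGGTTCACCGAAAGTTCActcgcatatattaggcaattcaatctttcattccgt
Rbp2: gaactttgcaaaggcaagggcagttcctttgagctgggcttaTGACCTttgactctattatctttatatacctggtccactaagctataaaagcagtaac
The capitals mark the match in each. In Bco1 it is AGGTCANAGGTCA read on the opposite strand, a direct repeat with 1 base between its copies, at 56 to 44 bases before the start; 11 of 32851 mouse promoters of this length (0.0335%) held these letters on either strand, and 54 (0.164%) held the looser form, with A or G as the first and G or T as the third base of each copy. In Rarb, at one of its starts, it is a direct repeat with 5 bases between its copies, at 53 to 37 bases before the start, and 29 of 32851 promoters (0.0883%) held that repeat in the looser form. In Rbp2 it is a lone AGGTCA on the opposite strand, at 58 to 53 bases before the start, which 14% of promoters held; the Bco1 repeat holds that motif in both of its copies. The Rdh7 promoter also held a lone AGGTCA on the opposite strand, farther out at 105 to 100 bases before the start. The other 10 member promoters held neither of the direct repeats. A match describes the letters and no binding was measured.

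One library stood apart. Sa replicate 3 of set 1 had Pearson correlations of 0.944 to 0.965 with the other libraries on the log2 scale, across genes, where the 22 others had 0.968 to 0.991 among themselves, and its FPKM summed to 667957 against 556466 to 612482. Its title and its description name different columns of the table, and the title's column was used. The column of the description did not stand apart, with correlations of 0.973 to 0.989 and a sum of 597009 FPKM. Where leaving it out turned the direction of a difference from Sa given below, or ended the call of a gene named below, the value without it is given too.

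Markers of the labelled tissue were present. All 12 genes of the enterocyte list passed the filter, with Apoa1, an apolipoprotein of chylomicrons, as the most abundant at a mean of 2341 FPKM. By contrast, the dendritic cell and macrophage list had 0 of 8 genes above the filter and summed to 0.8 to 2.36 FPKM per library, and the pancreas list had 0 of 9 and summed to 0.28 to 3.72 FPKM. The smooth muscle list (most abundant Tagln) summed to 0.85 to 2.32 FPKM and the stroma and endothelium list (most abundant Lyve1) to 2.11 to 3.93 FPKM, with 1 of 8 genes of each above the filter. The T cell list, with 5 of 8 genes above the filter, summed to 35.0 to 209 FPKM and was led by Gzma, a granzyme of cytotoxic lymphocytes. No gene found in the table from any of these lists was at 0 in all libraries.

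The 9 members spanned more than 4 orders of magnitude in FPKM. Rbp2 had a mean of 1677 FPKM over the 23 libraries and ranked 22 among the genes with a symbol. Aldh1a1 followed with 184 FPKM and Isx with 92.0 FPKM. The intermediate level belonged to the dehydrogenases Rdh7 (31.0 FPKM) and Dhrs3 (29.5 FPKM). Scarb1 (5.60 FPKM), Lrat (2.30 FPKM), Bco1 (1.11 FPKM) and Rarb (0.124 FPKM) were low. Lrat was thus weakly expressed here, while Dgat1, another acyltransferase able to esterify retinol, had a mean of 316 FPKM.

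**Figure D1:**
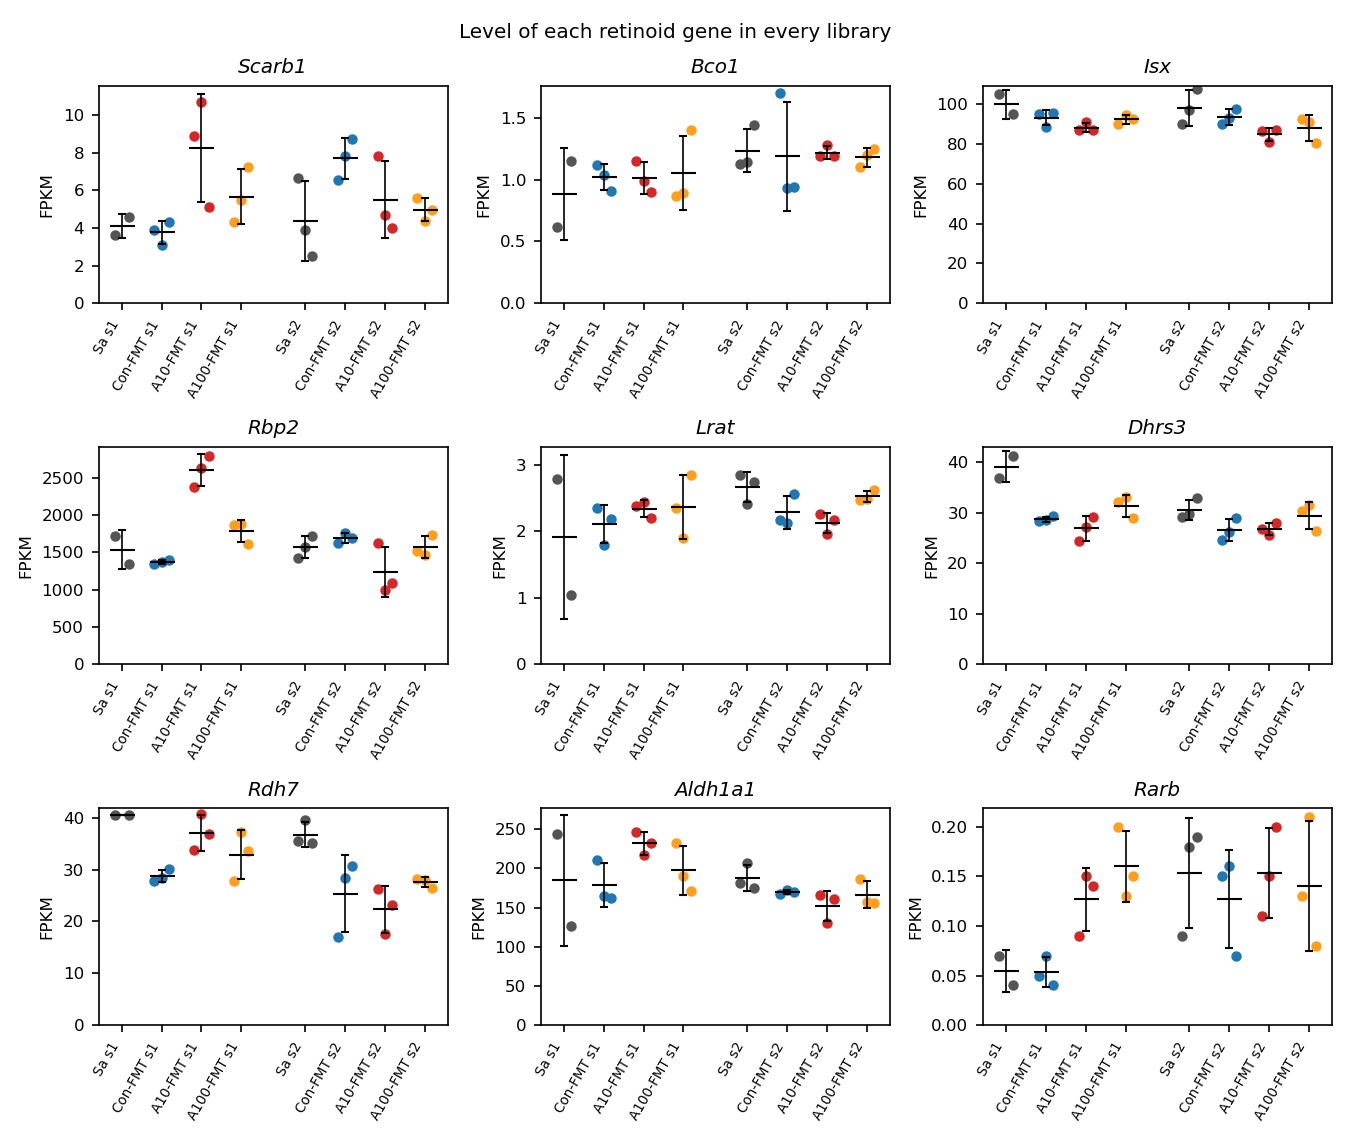
FPKM (vertical axis, from 0) of each of the 9 members in every library, by group on the horizontal axis (s1 and s2 stand for set 1 and set 2); each point is a mouse, the horizontal bar the group mean and the whiskers 1 SD (n = 2 for Sa of set 1, otherwise n = 3). The 3 Rbp2 values of A10-FMT in set 1 lie above all other libraries, and both Dhrs3 values of Sa in set 1 lie above those of the other groups.

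Among the genes of uptake and cleavage, Scarb1 passed the test in 2 comparisons and Bco1 and Isx in none. Those were A10-FMT vs. Con-FMT of set 1, where 16.7% of all entries passed, and its difference between sets, where 20.8% did. Scarb1 (NCBI Gene 20778, chromosome 5, 125277087 to 125341094) read 3.65 and 4.56 FPKM in Sa of set 1, 3.91, 3.09 and 4.31 in Con-FMT, 8.90, 10.7 and 5.09 in A10-FMT, and 4.31, 5.46 and 7.23 in A100-FMT. In set 2 it read 6.68, 3.88 and 2.52 FPKM in Sa, 6.54, 7.85 and 8.71 in Con-FMT, 7.82, 4.68 and 4.01 in A10-FMT, and 5.60, 4.37 and 4.96 in A100-FMT. Thus A10-FMT was the highest group in set 1, at 8.23 ± 2.87 FPKM (SD, n = 3), and Con-FMT the highest in set 2, at 7.70 ± 1.09 FPKM (SD, n = 3). Con-FMT was the lowest group in set 1, at 3.77 ± 0.622 FPKM (SD, n = 3). Ordered by mean, each group overlapped the next.

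Scarb1 rose in A10-FMT over Con-FMT in set 1 by 0.91 on the log2 scale (standard error 0.27, adjusted p = 0.0284 from limma), with all 3 A10-FMT libraries above all 3 Con-FMT libraries. In set 2 the log2 difference was -0.46 (standard error 0.27, adjusted p = 0.536 from limma), with overlapping groups. The change from set 1 to set 2 was itself past the threshold, at -1.37 (standard error 0.38, adjusted p = 0.0181 from limma), a comparison added after the data were seen. The call in set 1 was lost without either A10-FMT replicate 1 or 2 (log2 0.83 and 0.71, adjusted p = 0.08204 and 0.124 from limma) and without either Con-FMT replicate 1 or 2 (0.93 and 0.80, adjusted p = 0.07187 and 0.101). It was also lost, at 0.91, with no filter except a value above 0 (adjusted p = 0.05247), where more entries are tested. The call on the difference was lost without A10-FMT replicate 3 of set 2 (-1.199, adjusted p = 0.05034). Fewer cells of a type and less RNA per cell cannot be told apart in these values from mixed cells, for Scarb1 and the genes that follow.

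Bco1 (NCBI Gene 63857, chromosome 8, 117095851 to 117133720) stayed between 0.62 FPKM in a Sa library of set 1 and 1.70 FPKM in a Con-FMT library of set 2. Its lowest group mean was 0.885 FPKM, in Sa of set 1, and its highest 1.24 FPKM, in Sa of set 2, each group overlapping the next. The 4 group means of set 2 were all higher than the 4 of set 1, and the log2 difference between sets over all treatments was 0.15 (adjusted p = 0.130 from limma).

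Isx (NCBI Gene 71597, chromosome 8, 74873174 to 74893506) varied least of the 9 members, from 80.7 to 108 FPKM. In set 1 it read 105 and 94.9 FPKM in Sa, 95.1, 88.7 and 95.6 in Con-FMT, 86.9, 90.9 and 86.8 in A10-FMT, and 90.15, 94.5 and 92.6 in A100-FMT. In set 2 it read 90, 96.8 and 108 FPKM in Sa, 89.8, 92.9 and 97.7 in Con-FMT, 86.7, 81.1 and 86.8 in A10-FMT, and 92.7, 91.25 and 80.7 in A100-FMT. The Sa groups had the highest means and A10-FMT was below every Sa library in both sets, by 0.18 and 0.21 on the log2 scale, a difference given without a test. Among all entries, 23.5% in set 1 and 11.4% in set 2 had every A10-FMT library below every Sa library. Without Sa replicate 1 of set 1 the log2 difference of that set was -0.10, and without Sa replicate 3 of set 2 that of set 2 was -0.14. A10-FMT was also below every Con-FMT library in set 2 (log2 -0.14, adjusted p = 0.429 from limma) but not in set 1 (-0.08, adjusted p = 0.452).

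Rbp2 (NCBI Gene 19660, chromosome 9, 98490537 to 98509771) set A10-FMT of set 1 apart. In set 1 it read 1717 and 1349 FPKM in Sa, 1344, 1368 and 1392 in Con-FMT, 2373, 2637 and 2798 in A10-FMT, and 1866, 1879 and 1618 in A100-FMT. In set 2 it read 1428, 1568 and 1722 FPKM in Sa, 1622, 1764 and 1693 in Con-FMT, 1619.6, 992 and 1095 in A10-FMT, and 1519.6, 1458 and 1738 in A100-FMT. A10-FMT therefore held the highest group mean in set 1, 2603 ± 215 FPKM (SD, n = 3), which no library of another group reached, and the lowest in set 2, 1235 ± 337 FPKM (SD, n = 3). The remaining 6 group means lay between 1368 and 1788 FPKM and each overlapped the next.

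In set 1, A10-FMT had 1.70 times the mean Rbp2 level of Sa and 1.90 times that of Con-FMT; in set 2 the ratios were 0.786 and 0.730. On the log2 scale A10-FMT differed from Sa by 0.77 in set 1 and -0.38 in set 2, and from Con-FMT by 0.92 and -0.49. These differences use the libraries by which the gene was picked and have no test; all 3 A10-FMT libraries were above Sa in set 1, and in set 2 the groups overlapped. The log2 difference from Sa in set 2 was -0.59 without A10-FMT replicate 1 and -0.24 without A10-FMT replicate 2. In A100-FMT vs. Con-FMT, which holds none of those libraries, Rbp2 differed by 0.38 in set 1 (standard error 0.14, adjusted p = 0.293 from limma), with all 3 A100-FMT libraries above all Con-FMT libraries, and by -0.11 in set 2 (standard error 0.14, adjusted p = 0.818), with overlapping groups. The difference between sets was -0.49 (95% interval -0.90 to -0.08, adjusted p = 0.295), so neither the size in set 1 nor its change between sets passed the adjusted threshold.

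Lrat (NCBI Gene 79235, chromosome 3, 82892582 to 82903974) read between 1.04 and 2.85 FPKM. Its lowest value was in the Sa library of set 1 that stood apart, and the other Sa mouse of that set had 2.78 FPKM. The lowest group mean was 1.91 FPKM, in Sa of set 1, and the highest 2.66 FPKM, in Sa of set 2, each overlapping the next, and in set 2 A10-FMT was below all Sa libraries (log2 -0.23, given without a test). In set 1 the log2 differences of Con-FMT, A10-FMT and A100-FMT from Sa were 0.16, 0.26 and 0.27, and they were -0.29, -0.18 and -0.18 without the library that stood apart. Without the other Sa mouse the difference of A10-FMT was 0.71.

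Of the enzymes that interconvert retinol, retinal and retinoic acid, Dhrs3 and Rdh7 were highest in Sa of set 1. Dhrs3 (NCBI Gene 20148, chromosome 4, 144892534 to 144928209) read 36.9 and 41.2 FPKM in Sa of set 1, 28.3, 28.6 and 29.3 in Con-FMT, 24.3, 27.2 and 29.2 in A10-FMT, and 32.15, 33 and 28.9 in A100-FMT. In set 2 it read 29.2, 29.7 and 32.8 FPKM in Sa, 24.7, 26.2 and 28.9 in Con-FMT, 26.7, 25.5 and 27.9 in A10-FMT, and 30.2, 31.5 and 26.4 in A100-FMT. In both sets all Con-FMT and all A10-FMT libraries were below all Sa libraries, and A100-FMT was below Sa in set 1 and overlapped it in set 2.

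The Dhrs3 log2 differences from Sa were -0.52 in set 1 and -0.19 in set 2 for A10-FMT, -0.43 and -0.19 for Con-FMT, and -0.31 and -0.06 for A100-FMT. None has a test here, since Sa entered the choice of the gene and the 3 comparisons share the Sa libraries. A10-FMT and Con-FMT differed in Dhrs3 by -0.10 in set 1 and 0.01 in set 2, with overlapping groups. A100-FMT was higher than Con-FMT by 0.12 in set 1 and 0.14 in set 2, each within the overlap of the groups (standard error 0.08, adjusted p = 0.653 and 0.552 from limma). The other column, named in the description of the Sa mouse that stood apart, listed 32.2 FPKM in place of 41.2, and with it the log2 differences from Sa in set 1 were -0.35 for A10-FMT, -0.26 for Con-FMT and -0.14 for A100-FMT, the last of which then overlapped Sa.

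Rdh7 (NCBI Gene 54150, chromosome 10, 127884027 to 127889247) read 40.5 and 40.6 FPKM in Sa of set 1, 27.7, 28.4 and 30.03 in Con-FMT, 33.7, 40.7 and 36.9 in A10-FMT, and 27.8, 37.2 and 33.6 in A100-FMT. In set 2 it read 35.4, 39.5 and 35.2 FPKM in Sa, 16.9, 28.45 and 30.8 in Con-FMT, 26.25, 17.5 and 23.2 in A10-FMT, and 28.2, 28.0 and 26.4 in A100-FMT. Con-FMT and A100-FMT were below every Sa library in both sets, A10-FMT only in set 2. By limma, the log2 differences of Con-FMT from Sa were -0.48 in set 1 (standard error 0.19, adjusted p = 0.0591), -0.56 in set 2 (standard error 0.17, adjusted p = 0.436) and -0.52 over both sets (standard error 0.12, adjusted p = 0.0637), and none passed the threshold. The interval of the value over both sets was -0.78 to -0.26. In that other column Rdh7 had 23.4 FPKM in place of 40.6, which is below every Con-FMT and A100-FMT library of set 1, so that these groups then overlapped Sa. With it the difference from Sa in set 1 was -0.10 for Con-FMT and 0.08 for A100-FMT (adjusted p = 0.904 and 0.848 from limma), and for A10-FMT it turned from -0.13 to 0.26. Rdh7 fell in set 2 relative to set 1 over all treatments by 0.33 on the log2 scale (standard error 0.09, adjusted p = 0.0272 from limma), and this call was lost without A100-FMT replicate 2 of set 1 or A10-FMT replicate 2 of set 2 (-0.31 and -0.29, adjusted p = 0.0541 and 0.05162), with that other column (-0.23, adjusted p = 0.144) and with array quality weights (-0.29, adjusted p = 0.311). Rdh7 belongs to a cluster of closely similar genes with Rdh1, Rdh9, Rdh16 and Rdh19, so its share of reads is uncertain.

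Aldh1a1 (NCBI Gene 11668, chromosome 19, 20492583 to 20643463) read 244 and 126 FPKM in Sa of set 1, 211, 164 and 162 in Con-FMT, 246, 216 and 233 in A10-FMT, and 232, 189.7 and 171 in A100-FMT. In set 2 it read 181, 206 and 175 FPKM in Sa, 168, 172 and 169.95 in Con-FMT, 166, 130.1 and 161 in A10-FMT, and 186, 157 and 155 in A100-FMT. As with Rbp2, A10-FMT had the highest mean in set 1 (232 ± 14.9 FPKM; SD, n = 3) and the lowest in set 2 (152 ± 19.4 FPKM; SD, n = 3). A10-FMT libraries were all above Con-FMT in set 1 (log2 0.38, adjusted p = 0.148 from limma) and all below it in set 2 (-0.17, adjusted p = 0.770), and the difference between sets was -0.55 (standard error 0.25, adjusted p = 0.128), so none of these passed the threshold. The 2 Sa mice of set 1 differed more from each other than any 2 group means did, and the log2 difference of A10-FMT from Sa in set 1 went from 0.40 to -0.08 without the library that stood apart and to 0.87 without the other Sa mouse. That of set 2 was -0.30, and -0.19 without A10-FMT replicate 2. Aldh1a1 has a close copy in Aldh1a7.

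Rarb (NCBI Gene 218772, chromosome 14, 16430839 to 17082331) was between 0.04 and 0.21 FPKM and above 0 in all 23 libraries. In set 1 it read 0.07 and 0.04 FPKM in Sa, 0.05, 0.07 and 0.04 in Con-FMT, 0.09, 0.15 and 0.14 in A10-FMT, and 0.20, 0.13 and 0.15 in A100-FMT. All A10-FMT and A100-FMT libraries of set 1 were above all Sa and Con-FMT libraries of that set, and in set 2 the 4 groups overlapped between 0.07 and 0.21 FPKM. At such levels the number of fragments behind a value is unknown here, and no test was made.

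The comparison of A100-FMT with Con-FMT set contents of donors on the higher AOS dose against contents of vehicle donors, and it shares no library with the one that chose the members. In set 1, limma called 0 of 8 members (1 at an unadjusted p under 0.05, Rbp2), with 0.406% of all tested entries called. The median log2 change of the members was 0.13, with 7 of 8 above 0, beside a median of 0.0005 over all entries. In set 2, 0 of 8 were called (0 at an unadjusted p under 0.05), with 0% of all entries called, and the median change was -0.01, with 4 of 8 above 0. Averaged over the sets 0 of 8 were called (1 at an unadjusted p under 0.05, Dhrs3), with 0.123% of entries called. For the difference between sets 0 of 8 were called (2 at an unadjusted p under 0.05, Scarb1 and Rbp2), with 0% of entries called. With array quality weights 6.37% of entries were called for that difference. At an unadjusted p under 0.05 were 1282 of the 11337 entries in set 1 and 1270 in set 2. Over both sets there were 1097, and for the difference 1483.

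**Figure D2:**
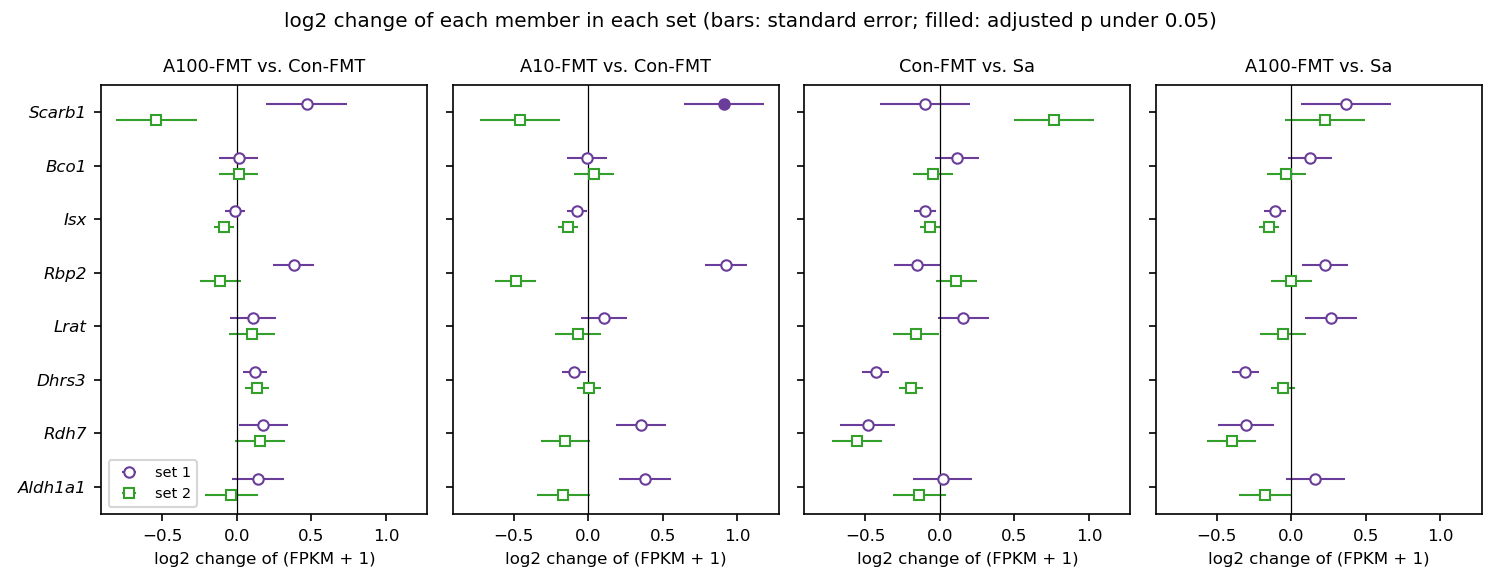
Log2 change of FPKM + 1 (horizontal axis) of the 8 members that passed the filter, in 4 comparisons, for set 1 (circles) and set 2 (squares); bars are 1 standard error from limma. Scarb1 in A10-FMT vs. Con-FMT of set 1 is the single filled symbol, with an adjusted p under 0.05; open symbols include Rbp2 and Dhrs3 in the right 3 panels, which have no test there.

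In A10-FMT vs. Con-FMT of set 1, 1 of the 6 members tested was called, Scarb1, beside 16.7% of all entries. At an unadjusted p under 0.05 were 3 of the 6 members and 3605 of the 11337 entries. These 6, which leave out Rbp2 and Dhrs3, had a median log2 change of 0.23, with 4 above 0, where the median of all entries was -0.08. In set 2, 0 of 6 were called (0 at an unadjusted p under 0.05) beside 0.379% of all entries, and the median was -0.15, with 1 of 6 above 0. Over both sets 0 of 6 were called beside 0% of all entries. There 1 member, Isx, and 697 of the 11337 entries were at an unadjusted p under 0.05. For the difference between sets, 3 of 6 members and 3928 of the 11337 entries were at an unadjusted p under 0.05. Of the 6, 1 was called beside 20.8% of all entries, so the share among the members was near that of the table. These shares also moved with single libraries, from 8.34% without Con-FMT replicate 1 of set 1 to 32.9% without either Sa library of set 1 for A10-FMT vs. Con-FMT of set 1, and from 12.9% without Con-FMT replicate 2 of set 2 to 36.8% without either of those Sa libraries for the difference.

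In Con-FMT vs. Sa, limma called 0 of the 6 members tested in set 1 (1 at an unadjusted p under 0.05, Rdh7), in set 2 (2, Rdh7 and Scarb1) and over both sets (1, Rdh7), beside 26.9%, 0.0353% and 0.75% of all entries. In A100-FMT vs. Sa it called 0 of 6 in set 1 (0 at an unadjusted p under 0.05), in set 2 (2) and over both sets (2), beside 35.2%, 0.0353% and 0.891% of all entries. At an unadjusted p under 0.05 were 5049, 651 and 2659 of the 11337 entries in Con-FMT vs. Sa. In A100-FMT vs. Sa they were 5475, 1606 and 2987. With every library kept, the alternatives called 0% to 0.979% in set 2 and 0% to 1.09% over both sets for Con-FMT vs. Sa. For A100-FMT vs. Sa they called 0% to 12.8% and 0% to 0.9%. Without Sa replicate 1 of set 1, which leaves 1 Sa mouse there, the shares over both sets rose far above these ranges. That of A100-FMT vs. Sa in set 2 also rose, within its range. The large shares in set 1 moved with single libraries. For Con-FMT vs. Sa, 0.00882% of entries were called without the Sa library that stood apart, 0% without Con-FMT replicate 1, 0.0176% without Con-FMT replicate 3, 0.00882% in a fit of the groups compared alone and 0% with array quality weights. For A100-FMT vs. Sa, 0.238% were called without that Sa library, 21.4% and 17.4% without A100-FMT replicate 1 or 3, 0.00882% in a fit of the groups compared alone and 0% with array quality weights. With that library as the only Sa library of set 1, 60.6% and 62.3% were called. In that fit 2 of 6 members, Lrat and Aldh1a1, were called in each of these comparisons, where without the library 0 were.

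In the described comparison of A10-FMT with Sa, 5 of 8 members were above 0 in set 1 and 1 of 8, Scarb1, in set 2. The 8 include Rbp2 and Dhrs3, which were picked by their change in this comparison. The median log2 difference of all entries was -0.01 in set 1 and 0.03 in set 2. Past the threshold were 32% and 0.423% of all entries. Without the Sa library that stood apart, 3 of 8 were above 0 in set 1, since Lrat (-0.18) and Aldh1a1 (-0.08) turned. The share of entries past the threshold in set 1 fell without the Sa library that stood apart and rose without the other. Each of these fits leaves 1 Sa mouse in that set. Over the alternatives that kept every library, the shares were 0% to 38.8% in set 1 and 0.0104% to 15.6% in set 2. The share in set 2 was 0.00882% without Sa replicate 2 of that set. The log2 differences ran from -0.52 for Dhrs3 to 0.81 for Scarb1 in set 1 and from -0.71 for Rdh7 to 0.31 for Scarb1 in set 2. Dhrs3, Isx and Rdh7 were below 0 in both sets and Scarb1 above 0 in both. The Scarb1 difference of set 2 moved with single libraries, being 0.04 without Sa replicate 3, 0.07 without A10-FMT replicate 1, 0.48 without A10-FMT replicate 3 and 0.61 without Sa replicate 1. The smaller Rdh7 difference of set 1, -0.13, was -0.06 without A10-FMT replicate 1 and -0.20 without A10-FMT replicate 2. The Bco1 difference of set 1 went from 0.11 to -0.10 without Sa replicate 1 and to 0.31 without Sa replicate 3. That of set 2 went from -0.01 to 0.06 without Sa replicate 3.

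Counting groups that did not overlap, 1 of 8 members in A100-FMT vs. Con-FMT of set 1 had all A100-FMT libraries higher (Rbp2) and 0 had all lower, beside 11.5% and 10.2% of all entries. In set 2, 0 were higher and 1 was lower (Scarb1), beside 16.1% and 6.49%. In the next comparisons Rbp2 and Dhrs3 are left out of the counts because Sa and A10-FMT entered their choice. In A10-FMT vs. Con-FMT of set 1, 3 of 6 were higher (Scarb1, Rdh7 and Aldh1a1) and 0 lower, beside 12.2% and 29.8% of all entries, whereas in set 2, 0 were higher and 2 lower (Isx and Aldh1a1), beside 17% and 8.3%. In Con-FMT vs. Sa, 1 of 6 was lower in set 1 (Rdh7) and 2 in set 2 (Rdh7 and Aldh1a1), and 0 were higher, beside 13.5% and 10.9% lower and 18.8% and 6.3% higher among all entries. In A100-FMT vs. Sa, 2 of 6 were lower in set 1 (Isx and Rdh7) and 1 in set 2 (Rdh7), and 0 were higher, beside 17.9% and 10.1% lower and 22% and 18.4% higher. For A10-FMT vs. Sa, described gene by gene above, 23.5% and 11.4% of all entries were lower and 13.9% and 19.2% higher.

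Over all treatments, set 2 differed from set 1 in 1 of the 6 members tested, Rdh7 as given above, beside 13.3% of all entries; Rbp2 (-0.24) and Dhrs3 (-0.14) have no test there, because the libraries that chose them weigh on this value. With Con-FMT and A100-FMT alone, a comparison added after the data were seen, 0 of 8 members were called (0 at an unadjusted p under 0.05) beside 0% of all entries, and Rbp2 was 0.06 higher in set 2.

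The wider pathway was followed through 56 other retinoid genes, of which 55 were in the table and 34 passed the filter. By role, 7 of 9 genes of uptake and hydrolysis passed, 3 of 7 binding proteins, 2 of 2 of esterification, 14 of 19 oxidoreductases, 1 of 4 retinal dehydrogenases, 0 of 3 of retinoic acid degradation, 5 of 5 receptors and 2 of 6 retinoic acid response genes. The highest of uptake and hydrolysis were Mttp, which loads lipid onto apolipoprotein B (434 FPKM), and Npc1l1, the intestinal sterol transporter (122 FPKM). Among oxidoreductases the alcohol dehydrogenases Adh1 (152 FPKM) and Adh5 (69.3 FPKM) led. Ppard (68.1 FPKM) and Rxra (37.1 FPKM) led the receptors, far above Rarb. Rbp7 (13.5 FPKM) and Fabp5 (8.33 FPKM) led the binding proteins and stood far below Rbp2. Aldh1a7 (2.60 FPKM) and Aldh8a1 (0.323 FPKM) led the retinal dehydrogenases other than Aldh1a1, while Cyp26b1 (0.0604 FPKM) and Cyp26a1 (0.00870 FPKM), which degrade retinoic acid, were close to 0. Cdx1 (144 FPKM) and Tgm2 (78.8 FPKM) led the response genes, and Dgat1 (316 FPKM) and Dgat2 (67.7 FPKM) were the esterification genes.

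**Figure D3:**
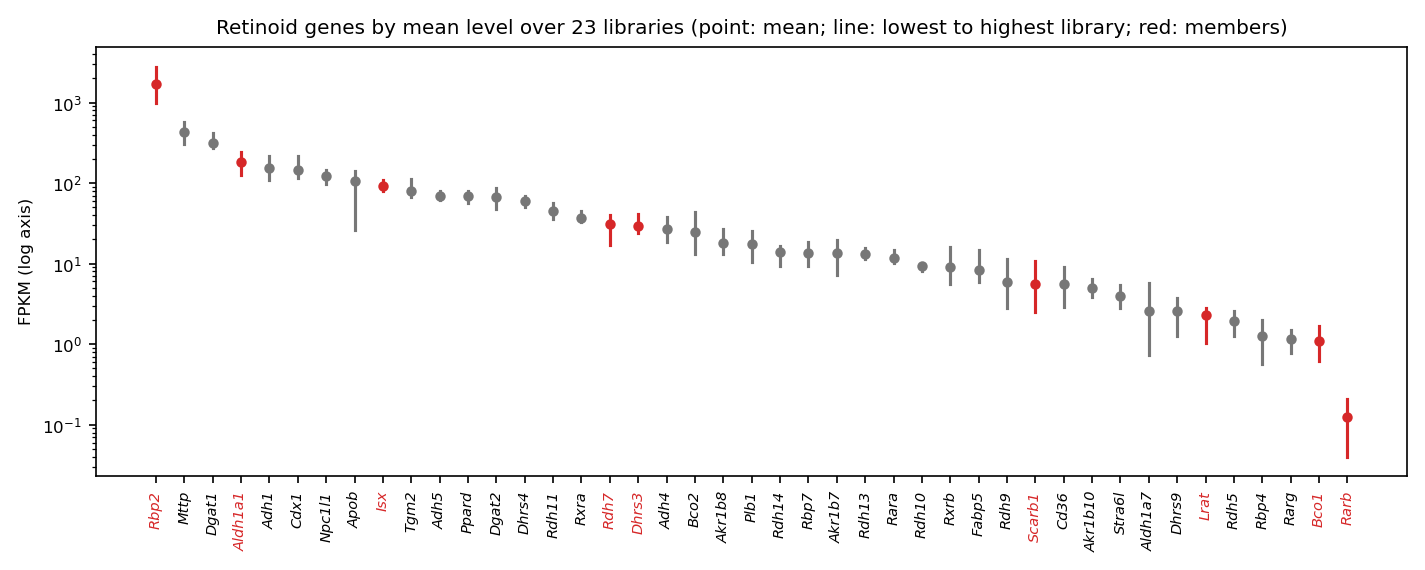
Mean FPKM over the 23 libraries on a log axis (points; lines run from the lowest to the highest library) of the 9 members (red) and the 34 other retinoid genes that passed the filter (grey), ordered by mean. Rbp2 is the highest with 1677 FPKM and Rarb the lowest with 0.124 FPKM.

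In A10-FMT vs. Con-FMT of set 1, 4 of the 34 were increased and 0 decreased, beside 5.2% and 11.5% of all entries, with a median log2 change of 0.08 over the list. They were Rdh9, a relative of Rdh7 (0.94), the acyltransferases Dgat1 (0.37) and Dgat2 (0.29), and Mttp (0.37), with adjusted p = 0.00113, 0.0121, 0.0193 and 0.0155 from limma. Rdh9 read 5.15, 4.71 and 4.72 FPKM in the Con-FMT libraries and 8.69, 10.9 and 11.35 in those of A10-FMT, with no overlap. In set 2, where 0.379% of all entries were called, Rdh9 was the 1 gene called and it went the other way (-0.85, adjusted p = 0.0315 from limma), its 3 Con-FMT libraries having 6.56, 6.47 and 6.39 FPKM and its 3 A10-FMT libraries 2.95, 2.83 and 3.70. This call in set 2 was lost in 7 of 32 alternatives (adjusted p = 0.05338 to 0.2497 from limma), among them without Con-FMT replicate 2 or 3, without A10-FMT replicate 2 or 3 and with no filter except a value above 0. The Rdh9 calls in set 1 and on the difference between sets were lost in 0 of 32, whereas those of Dgat1, Dgat2 and Mttp in set 1 were each lost in 2, all 3 of them without Con-FMT replicate 2. The difference between sets was called for 8 of the 34, below 0 for 7, where 20.8% of all entries were called, 6.7% below 0. The largest differences were those of Rdh9 (-1.79), Adh4 (-0.91), Akr1b7 (-0.91) and Mttp (-0.71), with adjusted p = 0.000115, 0.0317, 0.0260 and 0.00180 from limma. Of these, Adh4 was lost in 10 and Akr1b7 in 7 of 32 alternatives, and Mttp in 0. Reads of Rdh9 and of Akr1b7, a member of an aldo-keto reductase cluster, may be split with near-identical neighbours.

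In A100-FMT vs. Con-FMT, 0 of the 34 were called in either set (4 and 5 at an unadjusted p under 0.05, by limma), beside 0.406% and 0% of all entries. Of the 11337 entries, 1282 and 1270 were at an unadjusted p under 0.05. Over both sets Dhrs4, a reductase acting on retinal, was increased by 0.22 (standard error 0.04, adjusted p = 0.0453 from limma), beside 0.123% of all entries called. Dhrs4 read 50.99, 53.4, 55.25, 55.97, 56.0 and 59.4 FPKM in Con-FMT and 60.4, 61.3, 63.1, 64.7, 67.2 and 69.1 in A100-FMT over the 2 sets, with no overlap. The call was lost in 20 of 32 alternatives (adjusted p = 0.05348 to 0.1524 from limma), with log2 changes of 0.19 to 0.22. In set 1, Con-FMT vs. Sa gave 2 increased and 2 decreased genes, Aldh1a7 (1.16) and Apob (1.04), and Adh1 (-0.57) and Cdx1 (-0.42), beside 17.7% and 9.17% of all entries. A100-FMT vs. Sa gave 5 increased and 0 decreased, beside 22% and 13.1%, of which the largest changes were Apob (1.30), Rdh5 (0.43), Mttp (0.31) and Npc1l1 (0.31). All 9 of these calls against Sa were lost without the Sa library that stood apart, with adjusted p from 0.212 to 0.875 (limma). The changes then were 1.24 for Aldh1a7, 0.14 for Apob, -0.43 for Adh1 and -0.18 for Cdx1 in Con-FMT vs. Sa, and 0.40 for Apob, 0.27 for Rdh5, 0.09 for Mttp and 0.35 for Npc1l1 in A100-FMT vs. Sa. The changes of Aldh1a7 and Npc1l1 were thus of similar size though their calls were lost, and they rest on 1 Sa mouse of set 1. Without the other Sa mouse that of Npc1l1 was 0.27. The change of Apob, the chylomicron apolipoprotein, was smaller, and Apob had 26.4 FPKM in the library that stood apart against 79.1 to 139 in the others. In Con-FMT vs. Sa and A100-FMT vs. Sa of set 2, 0 of the 34 were called (1 and 9 at an unadjusted p under 0.05, by limma), beside 0.0353% of all entries in each. Set 2 was lower than set 1 in Dgat2 alone over all treatments (-0.22, adjusted p = 0.0113 from limma), beside 2.62% of all entries lower, and this call was lost with array quality weights (-0.22, adjusted p = 0.09861).

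The levels of the enterocyte, crypt and intestinal position lists are set beside those of Rbp2, and no test relates a list to the gene. The 12 enterocyte markers summed to 12928, 14147 and 15840 FPKM in A10-FMT of set 1, above the 8128 to 9343 of Con-FMT and every other library, and to 5602, 6530 and 7473 FPKM in A10-FMT of set 2, where Con-FMT had 8556 to 10652. Of these markers 9 rose and 0 fell in A10-FMT vs. Con-FMT of set 1, with a median log2 change of 0.56, and in set 2 0 rose and 2 fell, with a median of -0.49. Over 32 alternatives the enterocyte count was 7 to 9 in set 1 and 0 to 10 in set 2, with 0 in set 2 without A10-FMT replicate 2 or 3, without Con-FMT replicate 2 or 3, with no filter except a value above 0, with the replicate block and in a fit of the groups compared alone. Crypt and proliferation markers, led by Olfm4, went the other way in set 1, where 6 of 10 fell and 0 rose (sums of 669 to 752 FPKM in A10-FMT and 925 to 962 in Con-FMT), and in set 2 0 of 10 passed (1005 to 1115 and 837 to 995 FPKM). In set 1, proximal small intestine markers, led by Fabp1, rose in 3 of 8 tested and fell in 0 (sums of 1859 to 2586 FPKM in A10-FMT and 1240 to 1373 in Con-FMT), and distal markers, led by Muc13, rose in 4 of 9 and fell in 0 (3044 to 3418 and 2265 to 2527 FPKM). In set 2, 0 of either list passed (3 and 5 at an unadjusted p under 0.05, by limma), with medians of -0.36 for proximal and -0.27 for distal markers. Over the alternatives the counts in set 1 were 1 to 8 for crypt markers, 1 to 4 for proximal and 2 to 6 for distal markers; the crypt count was 1 without A10-FMT replicate 3, Con-FMT replicate 1 or Con-FMT replicate 2. In A100-FMT vs. Con-FMT of set 1, 0 of these 4 lists had a called gene, with medians of 0.21 for enterocyte, 0.18 for proximal, 0.26 for distal and -0.11 for crypt markers. For the difference between sets of A10-FMT vs. Con-FMT, where 6.7% of all entries were called below 0 and 14.1% above 0, 9 of 12 enterocyte markers (median log2 -1.06), 3 of 8 proximal (-1.03) and 5 of 9 distal markers (-0.76) were called below 0 and 6 of 10 crypt markers (0.46) above 0. Over the alternatives these counts were 9 to 11, 3 to 5, 4 to 6 and 1 to 8, the last being 1 without Con-FMT replicate 2 of set 2 and with median-ratio scaling, 2 without A10-FMT replicate 3 of set 1, and 3 without A10-FMT replicate 2 of set 2 or Con-FMT replicate 2 of set 1. The part of cell composition and of the position along the intestine in the values of Rbp2, Scarb1 and Aldh1a1 was not tested.

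**Figure D4:**
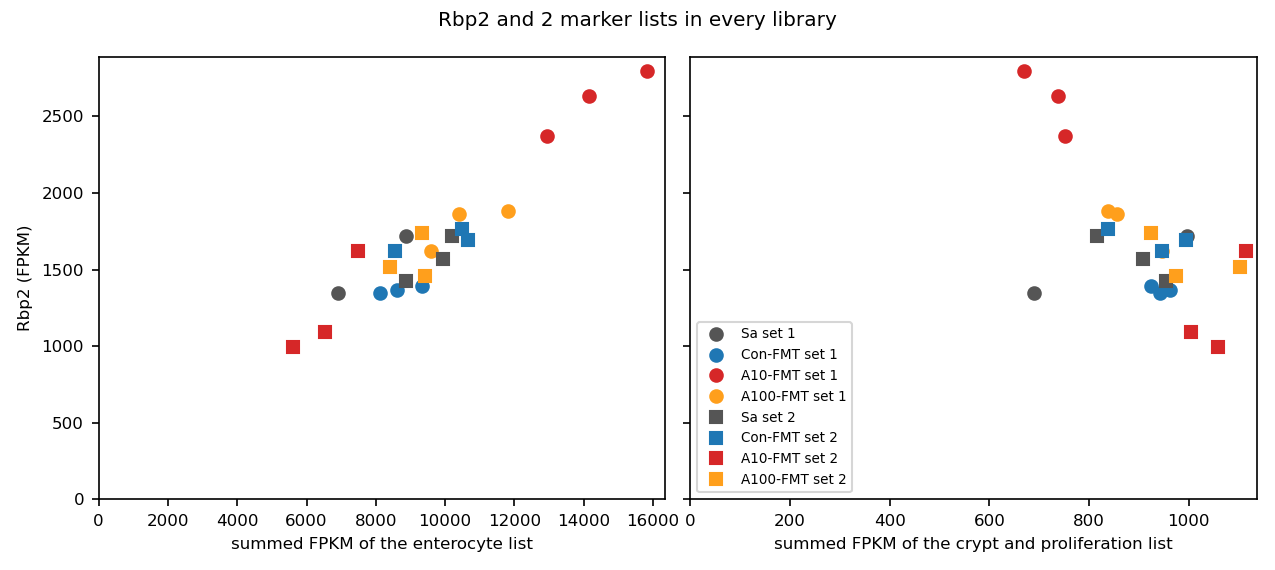
Rbp2 in FPKM (vertical axis) against the summed FPKM of the enterocyte list (left) and of the crypt and proliferation list (right), 1 point per library, with circles for set 1 and squares for set 2. A10-FMT of set 1 lies at the upper right on the left panel, with sums of 12928 to 15840 FPKM, and 2 of 3 A10-FMT libraries of set 2 lie at its lower left.

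Other lists moved too. In A100-FMT vs. Con-FMT of set 1, 5 of 7 Paneth cell markers, led by Reg3g, and 3 of 8 enteroendocrine markers, led by Gip, fell, while 1 of 8 goblet markers, led by Zg16, rose; in set 2 0 of the 3 lists had a called gene. All 9 calls of set 1 were lost without A100-FMT replicate 2 and in a fit of the groups compared alone, and the 5 Paneth calls also without A100-FMT replicate 3 or Con-FMT replicate 2; over 32 alternatives 0 to 5 Paneth, 0 to 4 enteroendocrine and 0 to 1 goblet markers were called. Over both sets 2 of 7 Paneth (median log2 -0.71) and 3 of 8 enteroendocrine markers (-0.36) fell, and 0 of 8 goblet markers were called (1 at an unadjusted p under 0.05, by limma). Over the alternatives these Paneth and enteroendocrine counts were 0 to 5 and 1 to 4, and leaving out any of 8 of the 12 libraries compared took the Paneth count to 0 and any of 6 took the enteroendocrine count to 1. In A10-FMT vs. Con-FMT of set 1, 2 of 8 goblet and 1 of 8 enteroendocrine markers rose (1 to 2 and 0 to 1 over the alternatives). For T cells, B and plasma cells (led by Xbp1), erythroid cells (led by Hba-a1), smooth muscle and stroma, 0 of the genes tested passed in either set. This held in A10-FMT vs. Con-FMT and in A100-FMT vs. Con-FMT. At an unadjusted p under 0.05 were 3 of 5 T cell genes and the 1 stroma gene tested in A100-FMT vs. Con-FMT of set 2. In A10-FMT vs. Con-FMT of set 2 all 5 T cell genes, the 1 erythroid gene (-1.775) and the 1 stroma gene (0.40) were. There the T cell list summed to 38.8 to 46.0 FPKM in A10-FMT and 70.1 to 209 FPKM in Con-FMT, without overlap, with a median log2 change of -1.49. For the difference between sets of A10-FMT vs. Con-FMT, 2 of 5 T cell genes, the granzymes Gzma (-2.03) and Gzmb (-2.06), and the 1 erythroid gene tested, Hba-a1 (-3.00), were called, with adjusted p = 0.0275, 0.0158 and 0.0425 from limma, as were 2 of 8 goblet and 2 of 8 enteroendocrine markers, all 4 below 0 (2 to 4 and 1 to 2 over the alternatives), beside the enterocyte, crypt, proximal and distal markers given above. Over the alternatives 1 to 5 T cell genes and 0 to 1 erythroid genes were called. Gzmb was named after its values were seen. The part of any of these lists in the difference of Scarb1 between sets was not tested.

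The genes most like 4 of the members were looked up by Spearman's rho of FPKM over the 23 libraries, which share treatment, set and scaling, among 10610 tested genes with a symbol. For Rbp2 these were Pdcd6 (0.91), Pxdc1 (0.89) and Tmem139 (0.88), and without the Sa library that stood apart Pdcd6 (0.91), Pxdc1 (0.89) and Cideb (0.88). For Dhrs3 they were Rec8 (0.75), Immp1l (0.75) and B4galnt1 (0.71), and without that library Rec8 (0.76), Slc25a37 (0.73) and Immp1l (0.73). For Isx they were Fam53b (0.76), Man2b2 (0.74) and Clec2g (0.70), and without it Osbpl3 (0.77), Fam53b (0.76) and Slc2a2 (0.76). For Bco1, near the lower end of the filter, Wdr62 (0.70), Bex4 (0.68) and 2810408A11Rik (0.68) gave way to Cyrib (0.76), Adk (0.75) and Lnpk (0.75). Among the members, Rbp2 went most with Aldh1a1 (rho of 0.62) and Dhrs3 most with Isx (0.64), while Rbp2 and Dhrs3, picked for opposite changes, had a rho of -0.03.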

How the data were processed

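The 23 libraries of small intestine RNA, each taken as 1 mouse, were sequenced by the authors. The authors aligned the reads to mm10 and deposited FPKM values, with 2 decimals, in 1 table of 19215 entries (17842 NCBI Gene numbers, 17725 with a symbol here). The number of reads per library is not used here, which leaves the depth unknown, and neither a counting error nor a limit for values near 0 could be set. A pseudocount of 1 was added, entries with a mean of at least 1 FPKM were kept (11337), and limma 3.58.1 in R 4.3.3 was fitted over the 8 groups together with empirical Bayes moderation and a trend; p-values were adjusted by Benjamini and Hochberg over all entries, and 0.05 was the threshold. The procedure was tested on simulated data, with changes larger than those of the members and with no library that stood apart. That test cannot show how well changes of the members' size are found. Members and lists were chosen with earlier results of these data known. Named were all 9 members, the other retinoid genes called in a tested comparison (at most 4 per comparison, by size of change) and the 2 most abundant of each role, the most abundant gene of each marker list, and the 3 genes most like Rbp2, Dhrs3, Isx and Bco1. A10-FMT vs. Sa has no test, nor has Rbp2 or Dhrs3 where Sa or A10-FMT enters; for the set contrast over all treatments this was decided after the data were seen. Alternatives were a pseudocount of 0.1, no filter except a value above 0, a minimum mean of 5 FPKM, median-ratio scaling, quantile normalization, array quality weights, a replicate block, a fit of the groups compared alone, the column named by the description of a Sa mouse of set 1, and each library left out. Gene positions and promoters are from RefSeq (GRCm38.p6).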

Additional observations from a re-analysis of the deposited data

Results flagged for a closer look

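In A10-FMT vs. Con-FMT the fitted value had opposite signs in the 2 sets for 5 of the 6 members with a test there, some of them close to 0, and for 75.8% of all entries, so the members' share is given as a description. For Scarb1 the difference between sets was tested, with a log2 value of -1.365 (adjusted p = 0.0181 from limma), beside 20.8% of all entries called. For Rbp2 all A10-FMT libraries were above Con-FMT in set 1 (0.92) and all below it in set 2 (-0.49), and the difference was not tested because the A10-FMT libraries entered the choice of the gene, so its values are a description. The gap in set 2 was narrow, since the highest A10-FMT value was 1619.6 FPKM and the lowest Con-FMT value 1622 FPKM.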

How the results depend on the processing

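The counts of members called stayed at 0 in A100-FMT vs. Con-FMT (each set, both sets and their difference), in A10-FMT vs. Con-FMT of set 2 and over both sets, in Con-FMT vs. Sa and A100-FMT vs. Sa of set 2, and in the set contrast with Con-FMT and A100-FMT alone, under all alternatives run. In A10-FMT vs. Con-FMT of set 1, where 1 was called, 0 were called with no filter except a value above 0 and 2 with the groups compared alone, with array quality weights or with the column of the description; leaving out 1 library gave 0 to 2. The difference between sets of A10-FMT vs. Con-FMT went from 1 to 2 with the groups compared alone and with the column of the description, to 3 with array quality weights, and to 0 to 2 without 1 library. In Con-FMT vs. Sa of set 1 median-ratio scaling gave 1 in place of 0. Without 1 library the count was 0 to 2 in Con-FMT vs. Sa and A100-FMT vs. Sa of set 1, 0 to 2 in Con-FMT vs. Sa and 0 to 1 in A100-FMT vs. Sa over both sets, and 0 to 2 in the set contrast over all treatments, which array quality weights took from 1 to 0. Among all entries, over the alternatives that kept every library, the share called was 0% to 4.82% in A100-FMT vs. Con-FMT of set 2 and 0.0265% to 2.44% in set 1 (highest with array quality weights; 0.00882% to 1.56% without 1 library), 8.56% to 32.8% in A10-FMT vs. Con-FMT of set 1, 0% to 9.61% in its set 2 (0% to 2.43% without 1 library) and 10.7% to 39.7% for its difference between sets, 0% to 32.3% and 0% to 38.3% in Con-FMT vs. Sa and A100-FMT vs. Sa of set 1, and 0% to 13.8% in the set contrast over all treatments (4.15% to 46.7% without 1 library). The cause of these moves was not tested. Replicate numbers did not pair the libraries: correlations of the deviations of same-numbered libraries ran from -0.35 to 0.32. With the replicate block, the count in A10-FMT vs. Con-FMT of set 1 was 1, for Scarb1 (adjusted p = 0.03701 from limma), and the block changed no call of a member; among the other retinoid genes it ended the calls of Rdh9 in set 2, of Dhrs4, of Rdh5 in A100-FMT vs. Sa of set 1 and of Adh1 in Con-FMT vs. Sa of set 1 (adjusted p = 0.05338, 0.07904, 0.06986 and 0.05497 from limma). A group left with 1 library was assumed to vary like the other groups. Unknown depth limits what can be said of Rarb, Bco1 and Lrat.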
